A study of Mus musculus with 2 samples.

Results

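The Ccn5 fibroblasts of the mouse mammary gland described here are single cells chosen by a rule on their own transcript counts: at least 1 unique molecular identifier (UMI, the tag that marks 1 captured transcript) of Pdgfra, at least 2 of Ccn5, and at least 1 of any of the partner genes Pgr, Greb1 and Prg4. Cells in which 4 or more of 7 interferon-induced genes (Rsad2, Cxcl10, Ifit1, Ifit3, Isg15, Usp18 and Zbp1) were detected had been dropped. The rule kept 633 cells, called members below, of 44506 cells that passed the quality filters, 418 of 21534 at puberty and 215 of 22972 in the adult. They were compared with the other Pdgfra+ cells, 18460 at puberty and 20784 in the adult.

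Both libraries were single-cell RNA sequencing (scRNA-seq) of stromal cells of wild-type C57BL/6 females, 1 from the mammary glands at puberty (4 weeks old) and 1 from adult virgin glands (9 weeks old). The cells had been sorted as lineage-negative (depleted of cells with CD45, CD31 or TER-119, which mark immune, endothelial and red blood cells) and CD24-negative, a gate that leaves out epithelium. Per the labels each condition held cells of 2 females, whose cells cannot be told apart in the files, and both libraries are marked as replicate 2. Since each stage had 1 library, stage and library cannot be told apart, no test across samples was possible, and every 95% interval given here reflects counting error alone.

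Ccn5 (also called Wisp2) encodes a secreted matricellular protein of the CCN family, which binds matrix and modulates growth factor signals, and it is known as an oestrogen-induced gene in breast cancer cells. Greb1, a cofactor of the oestrogen receptor, and Pgr, the progesterone receptor, are textbook targets of oestrogen receptor alpha (Esr1). Prg4 encodes lubricin, the boundary lubricant made by joint lining and some loose connective tissue fibroblasts. In the mammary gland, ovarian oestrogen drives duct growth at puberty and acts on both epithelium and stroma.

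The libraries held 21688 and 23183 barcodes with 255274670 and 259549498 UMIs, of which 145 barcodes (0.669% and 0.625%) occurred in both. Members were deeper than the other Pdgfra+ cells, with a median of 13922 against 12143 UMIs per cell at puberty and 14899 against 11226 in the adult, and levels are therefore given as counts scaled to 1e6 UMIs (CPM) after summing the cells of a group. Cells ranked as likely doublets made up 5.50% of members and 9.19% of the other cells at puberty, and 13.0% and 9.77% in the adult. Interferon-high cells were 24.4% of all Pdgfra+ cells at puberty and 13.8% in the adult, and the rule removed 167 of 585 and 112 of 327 cells that otherwise met it.

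The members carried the defining transcripts of fibroblasts, with Dcn (decorin) at 8484 CPM at puberty and 11317 in the adult. None of the 4 adipocyte markers (Adipoq, Plin1, Cidec, Lep) had a UMI in members of either library. Of 6 epithelial markers, 4 had no UMI in members (Krt18, Krt14, Krt5 and Cdh1) and the summed level was 0.494 CPM at puberty and 1.17 in the adult, against 3.56 and 1.18 in the other cells. Of 5 macrophage markers only Cd68 was seen, at 0.823 and 0.879 CPM. The 5 endothelial markers summed to 83.2 CPM in members against 43.4 in the other cells at puberty and to 63.5 against 21.0 in the adult, mostly from Kdr (65.4 and 32.2 CPM in members) and Pecam1 (17.5 and 31.0). At 0 in members were Vwf and Emcn at puberty and Vwf and Cdh5 in the adult, and the part of endothelial RNA in any result was not tested. Pericyte and smooth muscle markers summed to 24.9 CPM in members against 70.7 at puberty and to 21.1 against 43.7 in the adult.

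Members made up 2.21% (2.01 to 2.43) of Pdgfra+ cells at puberty and 1.02% (0.892 to 1.17) in the adult, a ratio of 0.462 (0.390 to 0.546). A minimum of UMIs takes more cells from deeper libraries, so the rule was also applied after thinning every cell to the same depth. At 6000 UMIs the shares were 1.04% and 0.511%, and at 3000 UMIs 0.354% (43 cells) and 0.176% (29 cells), with ratios of 0.489 (0.373 to 0.638) and 0.498 (0.300 to 0.817). The share in the adult library stood at about the same fraction of the pubertal one at each depth. Of Pdgfra+ cells with at least 2 Ccn5 UMIs, 71.6% of 817 carried a partner gene at puberty and 52.6% of 622 in the adult.

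Most members had 2 or 3 Ccn5 UMIs, at or just above the threshold that chose them. Exactly 2 Ccn5 UMIs were counted in 164 of 418 members at puberty (39.2%) and in 90 of 215 in the adult (41.9%), and 4 or more in 40.9% and 37.2%, with a highest count of 36 and 20. Just outside the rule lay 416 pubertal and 268 adult cells with a partner gene and 1 Ccn5 UMI. In those cells Cilp stood at 184 and 842 CPM and Mfap4 at 116 and 157 CPM, both below the members' levels given later.

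The partner genes differed in how often they were found in members of each stage. Pgr was detected in 54.8% of pubertal members (49.9 to 59.6) and in 25.6% of adult ones (19.9 to 32.0), and Greb1 in 55.7% (50.8 to 60.6) and 40.5% (33.8 to 47.4). Prg4 was detected in 52.6% (47.7 to 57.5) and 66.5% (59.8 to 72.8). Since every member had to carry a partner, fewer cells with Pgr or Greb1 leave a larger share with Prg4 by construction, and no stage direction of Prg4 can be read from these shares. Without the partner condition, and without interferon-high cells, Prg4 was in 31.3% of cells with 2 Ccn5 UMIs at both stages, and in 43.7% of pubertal and 36.2% of adult cells with 3 or more. After thinning to 3000 UMIs the shares were 22.2% (18.4 to 26.5) and 6.05% (3.26 to 10.1) for Pgr, 19.9% (16.1 to 24.0) and 14.4% (10.0 to 19.8) for Greb1 and 24.9% (20.8 to 29.3) and 30.7% (24.6 to 37.3) for Prg4. At this equal depth the intervals of the stages overlapped for Greb1 and Prg4 and stayed apart for Pgr. The thinned members had been chosen at full depth, so the rule binds their Pgr and Greb1 shares as well. Without the partner condition, Pgr was in 37.8% of pubertal and 11.4% of adult cells with 2 Ccn5 UMIs, and Greb1 in 32.5% and 16.9%. In cells with 3 or more, Pgr was in 41.6% and 14.5% and Greb1 in 46.8% and 24.0%. Cells with Prg4 as their only partner were 19.9% of members at puberty and 46.0% in the adult, while cells with both Pgr and Greb1 but no Prg4 were 17.0% and 6.51%, and cells with all 3 were 13.4% and 5.58%. The rule ties these shares to each other in the same way. The label of Ccn5 cells with Pgr and Greb1 therefore described 335 of 418 members at puberty by at least 1 of the pair, but 116 of 215 in the adult.

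**Figure D1:**
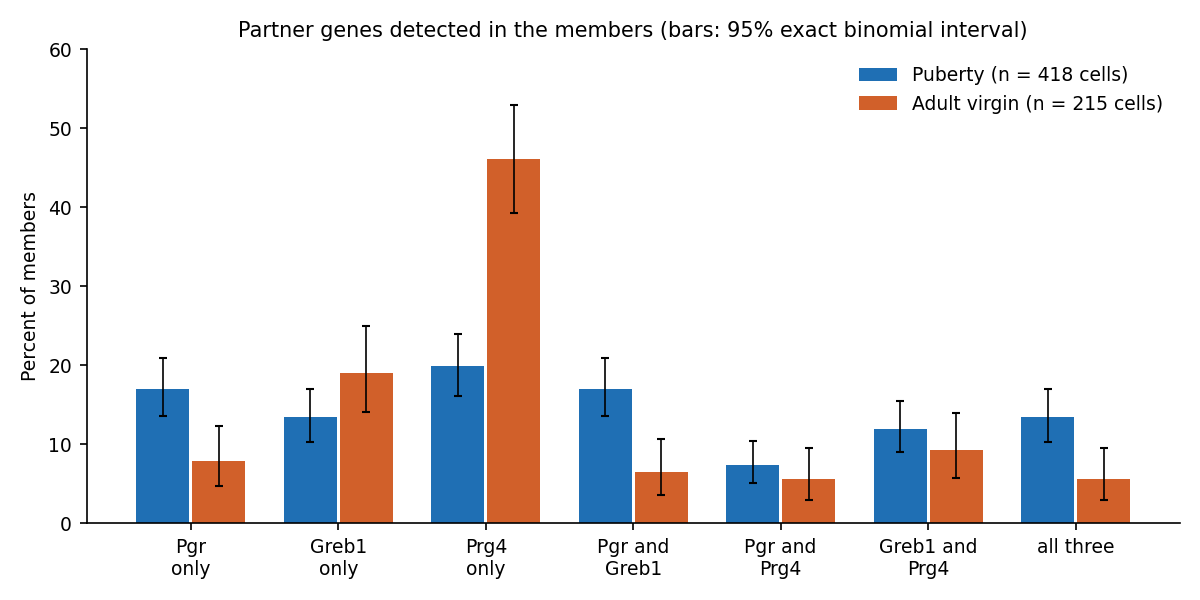
Percent of members (vertical axis) in which each combination of Pgr, Greb1 and Prg4 was detected, at puberty (blue, 418 cells) and in the adult (orange, 215 cells), with 95% exact binomial intervals. The bar for Prg4 alone stands at 19.9% at puberty and 46.0% in the adult, and the bars for Pgr alone, Pgr with Greb1 and all 3 are lower in the adult, with intervals that do not overlap. Every member had to carry a partner, so the rule ties these bars to each other.

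Levels of Pgr and Greb1 were lower in adult members, while that of Prg4 was close between stages. Pgr in members stood at 135 CPM at puberty and 36.9 in the adult, and in the other Pdgfra+ cells at 35.9 and 13.5. Greb1 stood at 99.8 CPM and 48.3 in members, and at 14.2 and 7.66 in the other cells. Both genes were lower in the adult library in members and in the other cells alike. Prg4 stood at 291 and 269.99 CPM in members and was lower in the adult in the other cells, at 89.3 and 33.5. Because these genes chose the members, the gap between members and other cells is a description of the rule. The rule also ties the partners' levels in members to each other, so no stage direction of a partner can be read from the members alone. Without the partner condition, and without interferon-high cells, Prg4 stood at 202 CPM at puberty and 148 in the adult in cells with 2 Ccn5 UMIs. In cells with 3 or more it stood at 233 and 151. In the cells with 2, Pgr stood at 100 and 15.05 CPM and Greb1 at 57.2 and 20.3.

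Greb1 and Pgr were also searched for the short letters bound by the oestrogen receptor, since both were lower in the adult library and both are its known targets. The 250 bases before each RefSeq start (build GRCm38.p6, the patch release of the mm10 build named for these counts) are printed below, 5′ to 3′ on the strand of the gene, with GGTCA or its reverse complement TGACC in capitals. Greb1 has a pair of starts on the minus strand, at chr12:16800887-16801136 and chr12:16757240-16757489, and Pgr has 1 on the plus strand at chr9:8899583-8899832. The second Greb1 start lies downstream of the first, and whether either was used in these cells was not tested. Each window ends at the base before the transcript start and lies outside the first exon of that transcript.
Greb1, first start: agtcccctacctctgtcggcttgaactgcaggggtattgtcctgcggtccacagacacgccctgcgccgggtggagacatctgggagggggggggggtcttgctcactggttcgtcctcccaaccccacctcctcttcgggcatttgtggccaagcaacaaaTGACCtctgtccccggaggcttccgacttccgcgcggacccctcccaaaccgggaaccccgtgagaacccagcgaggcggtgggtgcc
Greb1, second start: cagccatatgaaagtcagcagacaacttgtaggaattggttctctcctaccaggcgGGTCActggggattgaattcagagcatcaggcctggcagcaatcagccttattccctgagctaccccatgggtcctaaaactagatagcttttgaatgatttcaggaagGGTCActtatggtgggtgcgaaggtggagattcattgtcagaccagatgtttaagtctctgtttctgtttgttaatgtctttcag
Pgr: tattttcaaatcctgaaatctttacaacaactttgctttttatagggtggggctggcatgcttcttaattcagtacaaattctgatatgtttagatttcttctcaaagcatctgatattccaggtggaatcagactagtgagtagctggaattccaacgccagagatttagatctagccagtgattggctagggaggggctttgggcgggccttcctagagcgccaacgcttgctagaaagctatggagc
The first Greb1 window held 1 match, the second held 2, and the Pgr window held 0. A match was present in 35.2% of all 32851 RefSeq windows of this length, so it is a common string of letters. The full palindrome GGTCANNNTGACC, with both arms 3 bases apart, was in 0.0639% of windows and in none of these. The windows of Ano4 (chr10:89257791-89258040, minus strand) and Hs3st5 (chr10:36506557-36506806, plus strand) also held 0 matches. These letters are a description of the windows only. Ccn5 and Prg4 windows were not analysed here.

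Free RNA in droplets can give stray UMIs, so detection was compared with Pdgfra-negative cells with at least 2 UMIs of Rgs5 and 1 of Mcam, both pericyte genes, after thinning all cells to 3000 UMIs. Among 130 such cells at puberty, 1 had a Ccn5 UMI and 0 had Pgr, Greb1, Prg4, Ano4 or Hs3st5 (0 cells allow a share of up to 2.80% by the exact interval). Among 100 in the adult, 1 had Ano4 and 0 had the others (up to 3.62%). In members thinned the same way, Ano4 was found in 6.22% (4.10 to 8.98) against 2.54% of the other Pdgfra+ cells at puberty, and in 8.84% (5.405 to 13.5) against 2.52% in the adult. Hs3st5 was found in 14.1% (10.9 to 17.8) against 1.35%, and in 10.7% (6.90 to 15.6) against 5.16%. At full depth Ano4 was in 18.7% and 20.5% of members and Hs3st5 in 22.7% and 19.5%.

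Ano4 and Hs3st5 are markers that took no part in the choice of cells, though both were proposed from these data. Ano4 encodes a membrane protein of the anoctamin family, and Hs3st5 an enzyme that adds 3-O-sulfate to heparan sulfate. Ano4 stood at 24.9 CPM in members against 10.97 in the other cells at puberty (ratio 2.27, 1.91 to 2.67) and at 36.6 against 10.4 in the adult (3.52, 2.92 to 4.22). With 5 CPM added to both sides, its log2 ratio was 0.90 and 1.43, so it missed the 2-fold mark at puberty. Hs3st5 stood at 82.3 against 9.00 CPM at puberty (ratio 9.15, 8.28 to 10.1) and at 81.7 against 37.7 in the adult (2.17, 1.92 to 2.44). Its level in members was alike at both stages while the other cells were 4.19 times higher in the adult. Of the other 3-O-sulfotransferases, Hs3st1 was tested and stood at log2 ratios of −0.37 and 0.31, and among 12 other heparan sulfate enzymes tested none passed 2-fold in both libraries.

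A gene was called when its level in members was over 2-fold above or below that of the other Pdgfra+ cells in both libraries, with 5 CPM added to both sides, among genes with at least 10 CPM in either group. Of 7966 genes tested without the rule genes, 39 were higher in members (0.49%) and 55 were lower (0.69%), and the median log2 ratio of all tested genes was −0.04 at puberty and −0.06 in the adult. These percentages are the background for the gene lists below. The lists and genes were chosen with earlier results of these data known.

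Among the 15 genes with the highest ratios in members, Cilp, Mfap4, Lox, Fbln2 and Tgfbi encode secreted or matrix proteins. Cilp, a secreted protein of cartilage and tendon, stood at 438 CPM in members against 69.8 in the other cells at puberty (ratio 6.28, 6.03 to 6.54) and at 1552 against 214 in the adult (7.24, 7.04 to 7.45). It was detected in 58.6% and 75.8% of members and in 10.0% and 18.6% of the other cells. Mfap4, which binds elastic microfibrils, stood at 318 against 71.1 CPM and at 365 against 83.8. Lox, the enzyme that cross-links collagen and elastin, stood at 654 against 209 CPM (ratio 3.12, 3.02 to 3.23) and at 523 against 177 (2.96, 2.82 to 3.10), and was found in 97.4% and 87.4% of members. Fbln2, a fibulin of elastic fibres and basement membranes, stood at 776 against 305 CPM and at 1113 against 394. Tgfbi, a matrix protein induced by TGF-beta, stood at 293 against 117 and at 302 against 106.

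Kcnip4, a potassium channel partner and the second highest by ratio, stood at 43.5 CPM in members against 5.16 at puberty and at 51.5 against 4.31 in the adult, although only 12.7% and 13.0% of members had a UMI and 1 cell gave 12.9% and 14.2% of its UMIs. Piezo2, a mechanically gated channel, stood at 62.4 against 14.6 and at 68.8 against 14.7. Gas6, the ligand of the TAM receptor kinases, stood at 270.1 against 80.7 and at 565 against 115. Ncam1, an adhesion molecule, stood at 63.6 against 20.1 and at 64.1 against 16.8. Kdr, the main receptor of VEGF, stood at 65.4 against 17.3 and at 32.2 against 9.77. Kdr is also an endothelial marker, and Pecam1, the other tested gene of that list, stood at 17.5 against 25.2 at puberty and at 31.0 against 9.58 in the adult. In these 5 genes every ratio between members and other cells was over 3 in both libraries.

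The remaining genes of the highest 15 were Ccn2 (a CCN family relative of Ccn5), Angptl1 (a secreted angiopoietin-like protein), Gpx3 (an extracellular glutathione peroxidase), Sfrp1 (a secreted Wnt antagonist) and C7 (a complement component). Their log2 ratios ran from 1.29 to 1.89 at puberty and from 1.27 to 2.27 in the adult. Ccn2 stood at 131 against 33.5 CPM at puberty and at 403 against 79.9 in the adult. Of the other measured CCN genes, Ccn1 had log2 ratios of 0.27 and 0.35 and Ccn3 of −0.07 and −0.40.

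The genes lowest in members included a fat cell gene and several genes of growth factor and guidance signals. Fabp4, the fatty acid carrier of fat and capillary cells, stood at 10.4 CPM in members against 122 in the other cells at puberty (ratio 0.0852, 0.0654 to 0.109) and at 14.6 against 112 in the adult (0.131, 0.0973 to 0.173). Fgf10, a growth factor for epithelial budding, stood at 15.8 against 54.0 and at 28.1 against 106. Igfbp5, which binds insulin-like growth factors, stood at 319 against 1888 and at 554 against 1751. Robo1, a Slit receptor, stood at 21.1 against 109 and at 33.1 against 238, and Sema3e, a secreted semaphorin, at 74.3 against 279 and at 39.8 against 117. Adam12, Slc24a3, Negr1, Enpp2 (autotaxin) and Limch1 completed the lowest 10, with log2 ratios between −2.33 and −1.48 at puberty and between −2.66 and −1.42 in the adult. For Fabp4, 1 cell gave 33.3% and 40.0% of the members' UMIs.

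**Figure D2:**
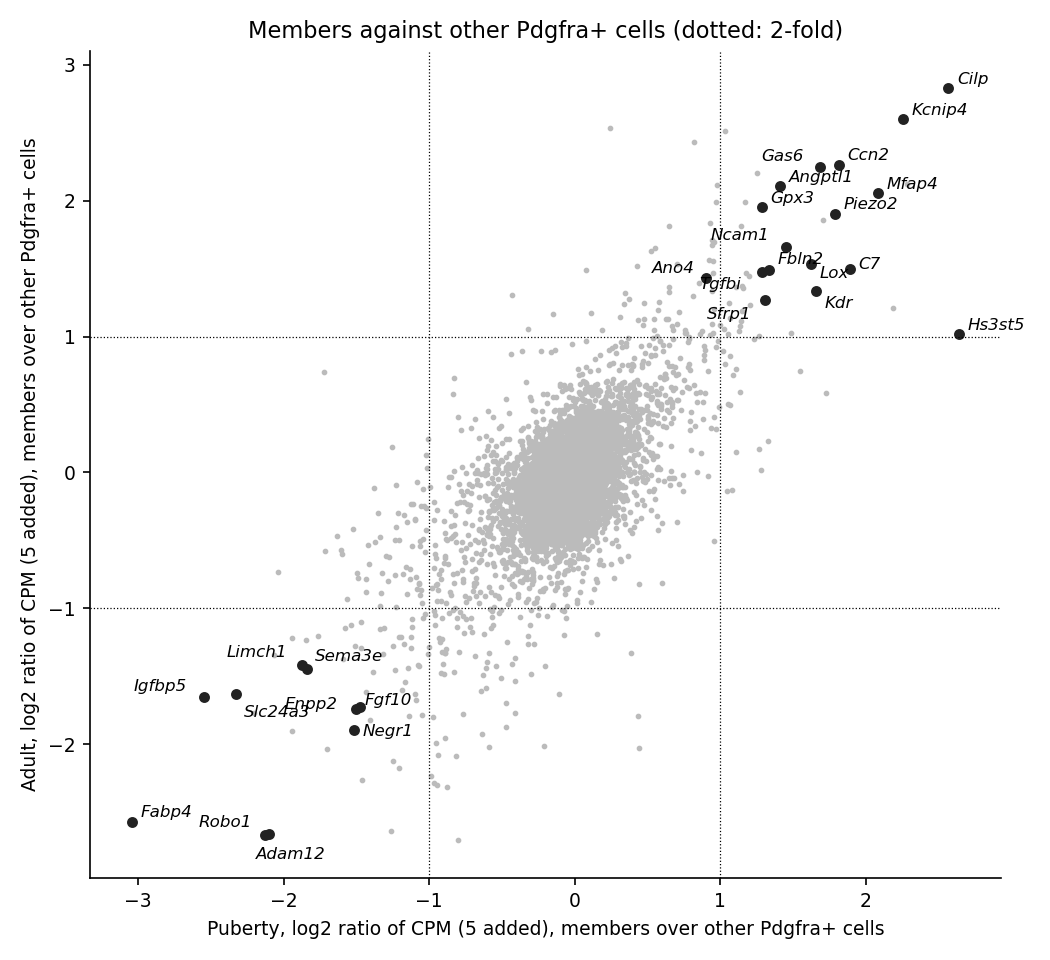
Log2 ratio of CPM (5 added) in members over other Pdgfra+ cells, puberty on the horizontal axis and adult on the vertical axis, 1 grey point per tested gene, with the 15 highest, the 10 lowest, Ano4 and Hs3st5 in black. Cilp lies at 2.57 and 2.83, Fabp4 at −3.04 and −2.57, and Hs3st5 is far right of the diagonal at 2.64 and 1.02.

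Clu and Cilp were higher among 4 tendon and joint lining genes tested, Clu (clusterin, an extracellular chaperone) at 45.9 against 17.9 CPM and at 35.1 against 10.7. Of 5 lobular-like fibroblast markers tested, Cilp and Tgfbi were higher, with list medians of 0.24 at puberty and 1.47 in the adult. The study names Thbs4 and Bmp5 from its own cells, and Cilp and Tgfbi as part of a published signature of human lobular fibroblasts. The list was chosen with the study's results known and so is no independent evidence. The whole list, which also holds Thbs4 and Bmp5, summed to 1625 CPM in members against 1182 at puberty and to 4316 against 1329.5 in the adult. Fndc1, which the study names in the same signature, was the most expressed gene of the list in both groups at puberty. It ran the other way there, at 792 CPM in members against 905 in the other cells. Among elastic fibre genes, 4 of 16 tested were higher in members (Eln, Fbln1, Fbln2 and Mfap4), 0 were lower, and the list's median log2 ratio was 0.06 at both stages. Eln (elastin) stood at 1167 against 527 CPM at puberty and at 839 against 235 in the adult. The remaining members of the list stayed under 2-fold in at least 1 library, among them Efemp1 at log2 ratios of −0.79 and −1.03. Among 16 collagen-processing enzymes, Lox and P4ha3 were higher, whereas 0 of 12 interstitial collagens passed in either direction, with medians of 0.01 and −0.11. Of 15 basement membrane genes tested, Lamb1 was lower, at 166 against 369 CPM and 194 against 484. Small leucine-rich proteoglycans had 0 of 9 called, with medians of 0.47 at puberty and 1.01 in the adult.

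Secreted signals moved in both directions. Of 10 stromal growth factors tested, Fgf9 and Igf1 were higher in members and Fgf10 was lower. Fgf9 stood at 32.4 against 2.69 CPM at puberty and at 24.9 against 1.84 in the adult, and Igf1 at 612 against 274 and at 604 against 262. Igfbp3 was higher (868 against 390 and 403 against 152) and Igfbp5 lower among 7 insulin-like growth factor binding and receptor genes. Sfrp1 and Dkk2 were higher among 7 Wnt antagonists and feedback genes, with medians for that list of 0.67 and 0.76, while 0 of 4 Wnt ligands were called. Gdf10 and Bmp7 were lower among 11 TGF-beta and BMP family genes. Hgf, a growth factor for epithelium, stood at 23.2 against 44.3 CPM and at 9.96 against 92.7 and was under 2-fold at puberty. Gas1, a Hedgehog co-receptor, was higher among 7 Hedgehog pathway genes, at 441 against 209 CPM and 722 against 326.

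Hormone receptors showed 0 of 13 genes called, with medians of 0.08 and 0.03. Esr1 itself stood at 533 CPM in members against 355 in the other cells at puberty (ratio 1.5, 1.45 to 1.55) and at 284 against 188 in the adult (1.51, 1.41 to 1.61), and was detected in 95.9% and 80.0% of members. Ghr, the growth hormone receptor, had log2 ratios of 0.61 and 0.89. Prlr, the prolactin receptor, stood at 22.7 against 29.7 CPM at puberty and at 30.2 against 11.9 in the adult, where 1 cell gave 41.7% of the members' UMIs (20.3% at puberty). Apart from the genes of the rule, 1 of 9 oestrogen-responsive genes tested (Igf1) and 0 of 11 glucocorticoid or progestin-responsive genes were called, with medians of 0.14 and 0.01 for the first list and −0.01 and −0.20 for the second.

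Progenitor markers were carried by most members. Pi16 and Dpp4, which mark the universal fibroblast progenitor state, were both detected in 93.3% of members and 73.6% of the other cells at puberty and in 77.2% and 41.8% in the adult. By level, 0 of 7 progenitor markers were called, and Pi16 stood at 1025 against 1091 CPM at puberty and at 857 against 761 in the adult. Among 10 genes of adipocyte commitment, Fabp4 and Cd36 were lower, Cd36 at 0.659 against 21.1 CPM and at 1.76 against 18.1. Among 15 chemokines and cytokines Ccl11 and Cxcl2 were lower, and among 15 axon guidance genes Robo1 and Sema3e. Contractile genes had Tpm2 and Myh11 lower of 6 tested, with Myh11 at 8.07 against 32.2 CPM and 4.10 against 17.0, and of 10 complement genes C7 was higher. Of 16 genes induced by tissue dissociation, 0 were called, with medians of 0.14 and 0.04. The interferon-stimulated genes outside the rule had 0 of 10 called, with medians of −0.72 and −0.22, and the rule had dropped interferon-high cells from the members but not from the other cells.

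Members were also set beside Pdgfra+ cells with the same Ccn5 minimum but no partner UMI, without interferon-high cells. These were 155 cells at puberty and 207 in the adult, with medians of 12646 and 12944 UMIs. Members had medians of 13922 and 14899, so a partner gene was more easily missed in the shallower cells. Whether such cells lack the partners was not tested, so the requirements for Ccn5 and for a partner could not be separated. Of 7936 genes tested, 5 were over 2-fold higher in members in both libraries (0.063%) and 6 were lower (0.0756%). Against this group 3 of the genes with the highest ratios over all other Pdgfra+ cells lay closer to members. Cilp stood at 538 CPM in partner-free cells and 438 in members at puberty, and at 1421 and 1552 in the adult. Mfap4 stood at 333 and 318, and at 419 and 365. Lox stood at 587 and 654, and at 469 and 523. Other genes differed more at puberty, with log2 ratios of members over partner-free cells of −1.158 for Ccn2, −0.41 for Angptl1, 0.61 for Negr1 and 0.98 for Sema3e.

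The genes higher in members than in those partner-free cells, named after their values were seen, were Hs3st5, Kcnip4, Akr1c14 (a hydroxysteroid dehydrogenase), Rgs2 (a regulator of G protein signalling) and Gm8739. Hs3st5 stood at 82.3 against 26.5 CPM at puberty and at 81.7 against 35.9 in the adult, and Akr1c14 at 139 against 60.6 and at 110.4 against 32.3. The 6 lower genes were Col4a3, Gucy1a1, H19, Mylk, Nrep and Tnc. Tnc, the matrix glycoprotein tenascin C, stood at 18.8 against 60.6 CPM and at 70.6 against 173. The Akr1c genes are close paralogs, and how reads that fit several of them were counted is not given in the sources used here.

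Levels were also compared across Ccn5 counts without regard to the partners. Members were 164 of 246 pubertal cells with 2 Ccn5 UMIs and 254 of 327 with 3 or more. In the adult they were 90 of 201 and 125 of 221, so these groups are not independent of the members. In Pdgfra+ cells without the interferon-high ones, Cilp stood at 59.5, 222, 308 and 577 CPM in pubertal cells with 0, 1, 2 and 3 or more Ccn5 UMIs, and at 142, 906, 894 and 2010 in the adult. Lox stood at 180, 396, 485 and 750 at puberty and at 161, 309, 372 and 608 in the adult. Fabp4 ran the other way, at 107, 38.8, 14.97 and 10.2 CPM and at 104, 33.5, 14.3 and 15.99. Greb1 also went up with Ccn5, at 13.6, 42.0, 57.2 and 88.8 CPM at puberty and at 6.95, 11.7, 20.3 and 32.3 in the adult. Pgr went up from 34.7 to 103 CPM at puberty, while in the adult its values were 13.3, 19.6, 15.05 and 25.05, with overlapping intervals for neighbouring counts above 0. Hs3st5 in the adult was higher in cells without Ccn5 (45.0 CPM) than in those with 1 UMI (23.5) and highest with 3 or more (84.8). Ano4 stood at 11.9, 23.0, 23.5 and 24.6 CPM at puberty, with overlapping intervals for all counts above 0. In the adult its values were 9.59, 19.5, 21.3 and 36.8.

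**Figure D3:**
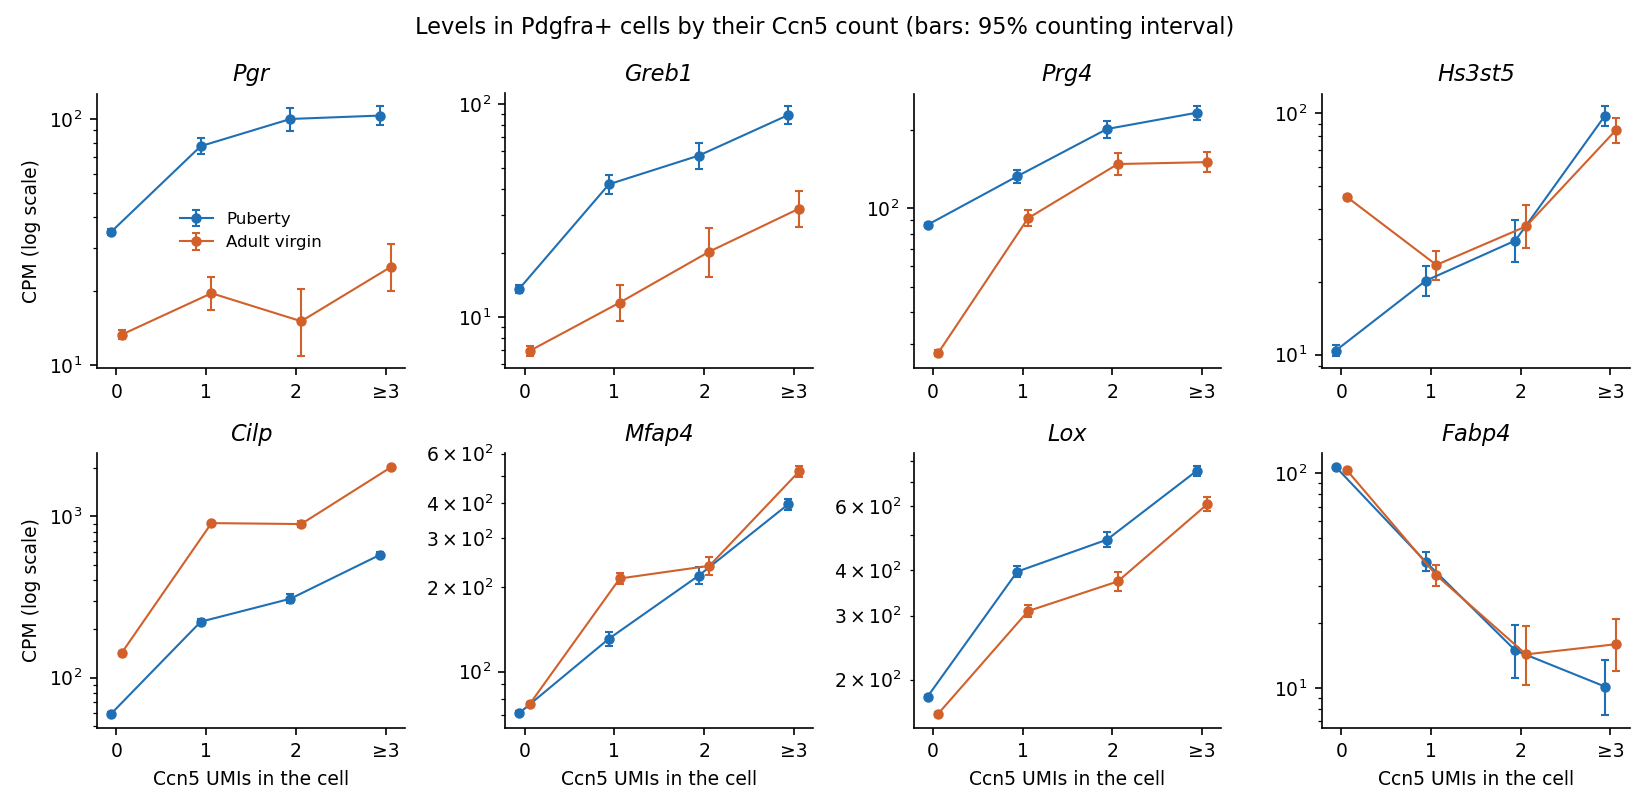
Level in CPM (log scale) of 8 genes in Pdgfra+ cells without the interferon-high ones, grouped by the number of Ccn5 UMIs in the cell, at puberty (blue) and in the adult (orange), with 95% Poisson intervals. Greb1, Prg4, Cilp, Mfap4 and Lox are higher in cells with 3 or more Ccn5 UMIs than in cells with 0 at both stages, and Fabp4 is lower.

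Members that carried Prg4 alone (83 at puberty, 99 in the adult) were also set against members that carried Pgr or Greb1 without Prg4 (198 and 72), in 7919 tested genes. The Prg4 cells were over 2-fold higher in 12 genes in both libraries (0.152%) and lower in 20 (0.253%). Among genes with at least 30 CPM, the highest in Prg4 cells was Col12a1, a fibril-associated collagen, at 337 against 136 CPM at puberty (ratio 2.48, 2.15 to 2.86) and at 339.7 against 96.3 in the adult (3.53, 2.85 to 4.40). The hemicentins Hmcn1 and Hmcn2, both long extracellular matrix proteins, followed, Hmcn1 at 78.3 against 12.3 CPM and at 119.8 against 54.6. Cxcl1, a neutrophil chemokine, stood at 1914 against 993 and at 919.6 against 352. Vegfc, Vav3, Pde7b and Ror1 completed the 8 highest, with ratios from 1.97 to 3.003 at puberty and from 2.06 to 2.37 in the adult. With 5 CPM added, Vav3, Cxcl1, Pde7b and Ror1 stayed just under 2-fold in 1 library each and were not among the 12.

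The gene highest in the Pgr or Greb1 cells was Ano4, at 34.0 CPM against 4.79 in the Prg4 cells at puberty (Prg4 over Pgr or Greb1 ratio 0.141, 0.0505 to 0.319) and at 60.2 against 17.7 in the adult (0.295, 0.182 to 0.466). Sntg1, Nxph1, Gm8739, Thsd4, Sema3e, Pcdh11x and Kcnip4 followed, with ratios from 0.166 to 0.378 at puberty and from 0.302 to 0.409 in the adult. Kcnip4 stood at 64.0 against 15.2 CPM and at 66.7 against 27.3. Esr1 stood at 621 CPM in the Pgr or Greb1 cells against 396 in the Prg4 cells at puberty and at 348 against 212 in the adult (ratios 0.638 and 0.610). Ccn5 itself differed little, at 285 against 246 and at 252 against 216. Hs3st5, the other marker that no rule used, stood at 70.5 CPM in the Pgr or Greb1 cells against 19.97 in the Prg4 cells at puberty and at 100 against 62.7 in the adult (ratios 0.283 and 0.627), under 2-fold in the adult.

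The cells of each library were clustered on 2000 variable genes that left out every gene of the rule. At puberty, cluster 3 of 11 held 351 of 418 members (84.0%, 80.1 to 87.4) and 26.3% of all Pdgfra+ cells, so members were 7.07% of it. In the adult, cluster 3 of 12 held 108 of 215 members (50.2%, 43.4 to 57.1) with 11.7% of Pdgfra+ cells, and cluster 1 held 76 (35.3%, 29.0 to 42.1) with 12.2%. Cluster numbers of the libraries are not linked to each other. Partner-free cells with 2 or more Ccn5 UMIs were in pubertal cluster 3 in 51.0% of cases, and cells with 1 Ccn5 UMI and a partner in 77.2%. Cells with a partner but no Ccn5 UMI were there in 42.2%, and cells with neither Ccn5 nor a partner in 17.9%. In the adult the shares in cluster 3 were 45.4%, 43.3%, 13.6% and 7.06%, in the same order. Among the nearest neighbours of a member in this space, 26.4% were members at puberty and 14.7% in the adult, against 1.48% and 0.852% among the neighbours of other cells. Members therefore had more members near them than other cells had. Most of their neighbours were still not members, and they formed no cluster of their own at this resolution. The other cells of adult cluster 1 were deep, with a median of 14344 UMIs against 10844 in Pdgfra+ cells outside it, and the part of depth was not tested.

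**Figure D4:**
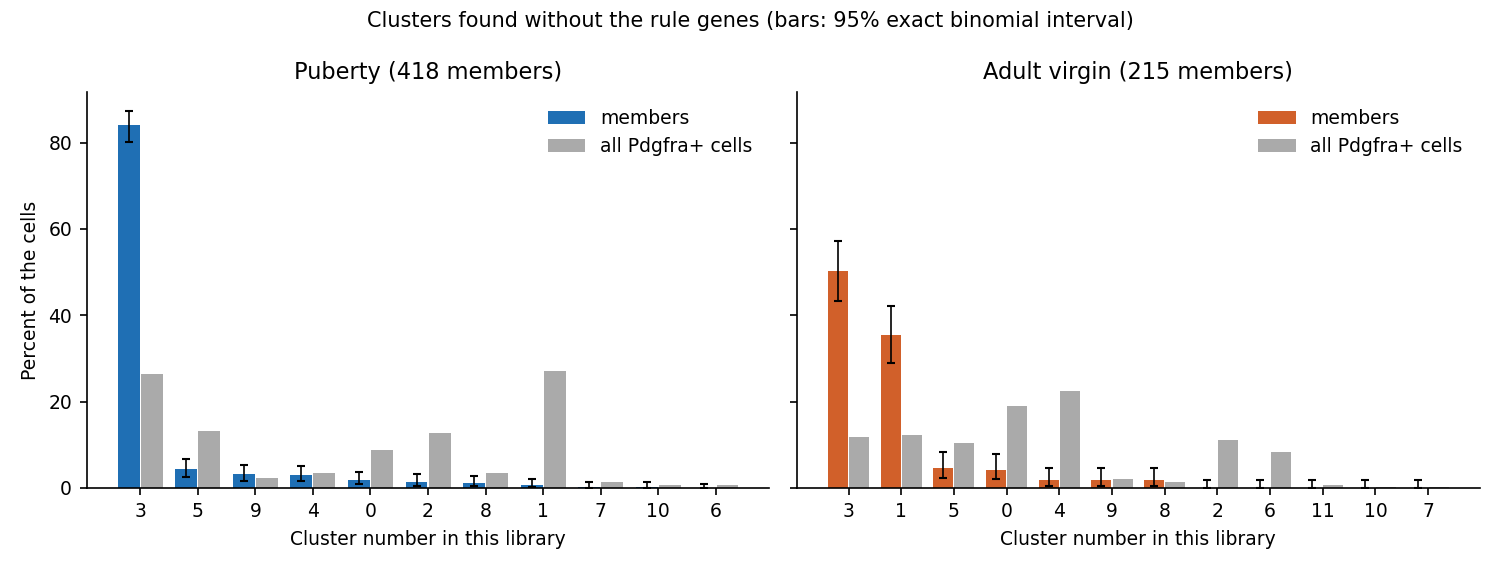
Percent of members (coloured, with 95% exact binomial intervals) and of all Pdgfra+ cells (grey) in each cluster, for the pubertal library on the left and the adult library on the right. A single pubertal cluster holds 84.0% of members, while adult members divide between clusters 3 (50.2%) and 1 (35.3%).

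The adult clusters held members of different make-up. In cluster 3, which was found partly from the same genes, members stood at 2509 CPM for Thbs4 (a thrombospondin of tendon and muscle matrix), 227 for Bmp5, 703 for Hmcn2 and 2921 for Cilp. Members in cluster 1 stood at 1.52 CPM for Thbs4, 1.52 for Bmp5, 33.3 for Hmcn2 and 358 for Cilp. Pi16 and Dpp4 ran the other way, at 568 and 416 CPM in cluster 3 and at 954 and 834 in cluster 1. The pubertal members of cluster 3 had Thbs4 at 1.99, Bmp5 at 1.59, Hmcn2 at 22.9, Pi16 at 1065 and Dpp4 at 829 CPM, values closer to those of adult cluster 1.

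Partner genes differed between those adult clusters as well. Prg4 was detected in 77.8% of members in cluster 3 (68.8 to 85.2) and 53.9% in cluster 1 (42.1 to 65.5). Pgr was detected in 17.6% (10.9 to 26.1) and 32.9% (22.5 to 44.6), and Greb1 in 36.1% (27.1 to 45.9) and 52.6% (40.8 to 64.2). In pubertal cluster 3 Pgr was found in 60.1% of members and Greb1 in 59.8%. Within a cluster, members still differed from the cells around them in some genes. In adult cluster 3, Cilp stood at 2921 CPM in members and 1497 in the other cells, Lox at 565 and 258, and Hs3st5 at 88.1 and 10.8, while Thbs4 stood at 2509 and 1601.8. In adult cluster 1, Cilp stood at 358 and 70.4, and Hs3st5 at 82.6 and 24.7. In pubertal cluster 3, Cilp stood at 391 and 64.0 and Hs3st5 at 94.4 and 13.3. Other genes were not higher in members, with Myoc at 1056 and 1071 CPM and Hmcn2 at 703 and 837 in adult cluster 3. Ano4 stood at 26.0 and 21.2 in pubertal cluster 3, with overlapping intervals. It stood at 53.4 and 27.9 in adult cluster 3 and at 24.2 and 9.35 in adult cluster 1.

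Between stages, 245 of 8505 tested genes were over 2-fold higher in adult members (2.88%) and 171 were lower (2.01%), and the median log2 ratio of all tested genes was 0.11 in members and 0.11 in the other Pdgfra+ cells of the same libraries. Scaling by TMM (the trimmed mean of M values) instead of the total shifted every stage ratio by −0.16 and gave 185 higher and 241 lower, so the higher share of the calls was 58.9% by total and 43.4% by TMM. Stage values are given here by total, and the balance of genes higher and lower cannot be read from them.

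Several of the genes most above their pubertal level in adult members were those highest in members of adult cluster 3. Thbs4 stood at 54.5 CPM in pubertal members, where 1 cell gave 76.4% of its UMIs, and at 1187 in adult members (ratio 21.8, 19.5 to 24.4), against 45.3 and 201 in the other cells. It was detected in 3.11% and 29.3% of members. Bmp5, a bone morphogenetic protein, stood at 5.76 and 109 CPM in members and at 4.81 and 24.5 in the other cells. Hmcn2 stood at 34.3 and 365 in members, Col8a1 (a short-chain collagen) at 36.6 and 261, and Myoc (myocilin) at 113 and 714. Meox1, a homeobox transcription factor, stood at 2.31 and 58.6 CPM, with 15.3% of adult members positive. A single cell gave 71.4% of its UMIs in pubertal members and 21.0% in adult ones. Cells with a Thbs4 or Bmp5 UMI were 25 of 418 members at puberty (5.98%) and 92 of 215 in the adult (42.8%), against 4.89% and 14.6% of the other cells. Without them, 191 genes were higher and 168 lower in adult members.

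S100g, a small calcium-binding protein, stood at 2.80 CPM in pubertal and 58.0 in adult members, against 0.503 and 2.72 in the other cells. It was found in 9.77% of adult members and 0.789% of the other adult cells, and 1 cell gave 22.7% of its UMIs. Kcnma1, a calcium-activated potassium channel, stood at 5.93 and 49.2 CPM in members and at 2.15 and 4.82 in the other cells. Both genes changed by more in members than in the other cells, by 2.53 and 1.85 on the log2 scale. Frmpd4, Hspa1b (a heat shock protein) and Scg3 (a secretogranin) were higher in adult members by 2.96, 2.90 and 2.79 on the log2 scale and moved nearly as much in the other cells, with differences in stage change of 0.16, 0.06 and −0.03.

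Among the genes lowest in adult members, Akr1c18, a hydroxysteroid dehydrogenase that inactivates progesterone, stood at 200.1 CPM at puberty and 40.4 in the adult in members and at 385 and 103 in the other cells. Il1rl1, an interleukin-1 family receptor, stood at 34.1 CPM in pubertal members and had 1 UMI in adult members (0.293 CPM). Hbegf, a ligand of the EGF receptor, stood at 41.8 and 5.56 in members and at 38.4 and 15.5 in the other cells. Rnf180, Rasgef1c, B830012L14Rik, Gm56730, Gm12840, Gm8739 and Cpz (a carboxypeptidase) made up the rest, with log2 ratios from −3.02 to −2.21. Rasgef1c and B830012L14Rik were as much lower in the other cells, at −2.96 and −2.64 against −2.84 and −2.58 in members.

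Genes whose stage change was more negative in members than in the other cells were Rasd1, Gramd1b, Hs3st5, Slit2 and Nexmif. Slit2, the secreted ligand of Robo receptors, stood at 93.7 and 222 CPM in members and at 101 and 699 in the other cells. Gramd1b, a sterol transfer protein, stood at 17.0 and 33.7 in members and at 20.4 and 151 in the other cells. Rasd1, a small GTPase induced by glucocorticoids, stood at 48.1 and 7.91 in members and at 34.1 and 47.8 in the other cells.

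**Figure D5:**
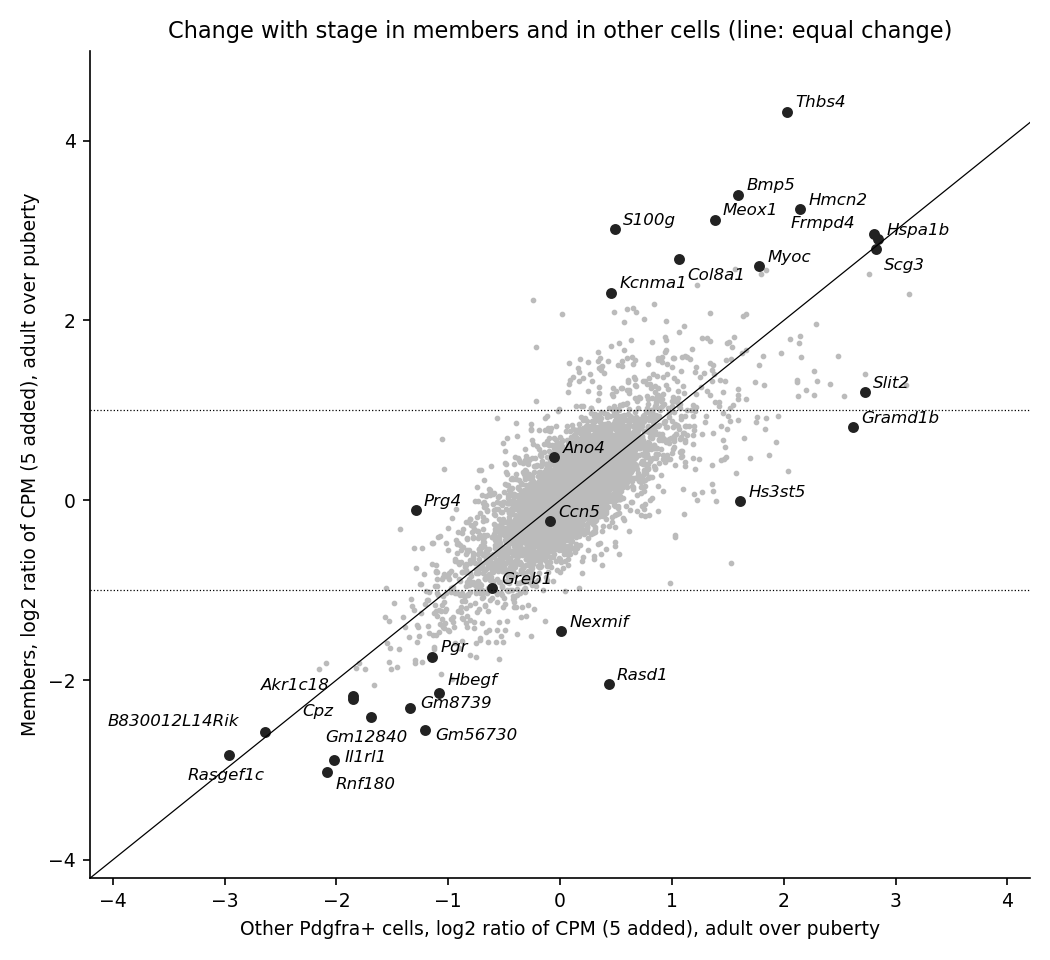
Log2 ratio of CPM (5 added), adult over puberty, in the other Pdgfra+ cells (horizontal axis) and in members (vertical axis), 1 grey point per gene with at least 10 CPM in members of a stage, with named genes in black. Thbs4 lies at 4.32 in members and 2.03 in the other cells, S100g at 3.01 and 0.49, Prg4 at −0.11 and −1.29, and Hs3st5 at −0.01 and 1.61. Prg4 was among the genes that chose the members, so its value in members is tied to the rule.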

How the data were processed

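The deposited matrices hold UMI counts for each gene in each barcode, with 1 library per stage. The authors made them, per the submitters' processing notes, with Cell Ranger 8.0.1 on mm10, without normalization. Members and gene lists were chosen with earlier results of these data known. Cells needed 500 genes and at most 10% mitochondrial UMIs. UMIs were summed over cells and divided by the total (CPM). Ratios have conditional binomial, shares exact Clopper-Pearson and levels exact Poisson intervals (95%). With 1 library per stage no p-value was computed. The rule for calling genes was tested on simulated counts with counting error alone, for changes beyond 2-fold in genes of at least 30 CPM. It was not tested on changes near 2-fold, on lower levels or on genes whose UMIs came largely from 1 cell. Named genes had at least 30 CPM and the largest ratio in the weaker library (15 highest and 10 lowest against other cells, 8 each way between kinds of member), the largest stage ratio (10 each way) or the largest difference in stage change (5 each way), and the rule genes and genes called in lists were added. Clusters came from scanpy 1.11.5 (30 principal components, Leiden resolution 0.5). Scrublet's own threshold marked 0% of pubertal barcodes and so had not worked, and barcodes were ranked by its score (0.4% per 1000 barcodes) and removed only as an alternative. TMM factors came from edgeR 4.0.16. Of the 6 marker genes, 4 matched a RefSeq promoter window (GRCm38.p6) by symbol. Where the study's methods and the labels differed on kit, software version or age, the labels were followed.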

Additional observations from a re-analysis of the deposited data

Results flagged for a closer look

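For 3 named genes the ratio of members to other Pdgfra+ cells lay above 1 in the pubertal library and below 1 in the adult library, with counting intervals that left out 1 on both sides. The differences between stages were not tested, since each stage had 1 library. Rasd1 stood at 48.1 against 34.1 CPM at puberty and at 7.91 against 47.8 in the adult, a difference in log2 ratio of −2.47. Nexmif, an X-linked neuronal gene, stood at 44.8 against 20.7 CPM and at 13.2 against 20.8, a difference of −1.46. Gm56730 stood at 563 against 506 CPM and at 91.7 against 216, a difference of −1.34. In adult members 1 cell gave 25.9% of the Rasd1 UMIs, 11.1% of those of Nexmif and 8.95% of those of Gm56730, and the part of single cells in these differences was not tested.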

How the results depend on the processing

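The share of members (puberty, then adult) was 4.42% and 2.30% with a Ccn5 minimum of 1 UMI, 1.35% and 0.595% with 3, 1.77% and 0.552% without Prg4 as a partner (ratio 0.311), 1.10% and 0.276% with at least 2 partners (ratio 0.251), 3.10% and 1.56% with interferon-high cells kept, and 0.354% and 0.176% or 1.04% and 0.511% after thinning to 3000 or 6000 UMIs. The adult share was the lower one in each of these alternatives. Adding 1 CPM gave 95 genes lower in members, 372 higher in adult members and 26 above in the Prg4 cells, and a minimum of 30 CPM gave 29 lower and 153 higher in adult members. Genes lower in members numbered 84 with ranked doublets removed, 88 in cells of 8000 to 16000 UMIs and 89 with a Ccn5 minimum of 3. The cause was not tested. Against cells with Pi16 and Dpp4, 77 genes were higher in members. Against other cells with 2 or more Ccn5 UMIs, 1 was higher and 23 lower, and without interferon-high cells, a choice made after seeing the data, 5 and 6. Leaving interferon-high cells out of the other Pdgfra+ cells, also chosen after seeing the data, gave 45 higher and 69 lower, of which 37 and 52 were among the 39 and 55. At a clustering resolution of 1.0 the leading clusters held 78.2% and 29.8% of members. Ano4 was detected in 11.8% and 13.6% of members at 6000 UMIs and in 18.7% and 20.5% at full depth, and Hs3st5 in 18.03% and 16.8%, and 22.7% and 19.5%.

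Of 962 alternative values for 82 values of named genes, 788 stayed within a fixed log2 margin and 152 moved past it. The margin was the same for every gene and took no account of counting intervals. The other 22 turned in direction, all against a narrower comparison group, and are given as log2 ratios. Against cells with Pi16 and Dpp4, Enpp2 stood at 0.061 at puberty. Against other cells with 2 or more Ccn5 UMIs, Ccn2 stood at −0.055, Sfrp1 at −0.10, Negr1 at 0.59, Enpp2 at 0.044 and Sema3e at 0.22 at puberty, and Kdr at −0.058 and Limch1 at 0.063 in the adult. Without interferon-high cells in that group, Cilp stood at −0.29, Mfap4 at −0.066, Ccn2 at −1.158, Piezo2 at −0.24, Gas6 at −0.057, Angptl1 at −0.41, Sfrp1 at −0.32, Negr1 at 0.61 and Sema3e at 0.98 at puberty, and Mfap4 at −0.20, Ccn2 at −0.14, Tgfbi at −0.15, Sema3e at 0.021 and Limch1 at 0.067 in the adult. No paired analysis was possible because each stage had 1 library and no result came from a test, and no replicate could be left out. A gene with 0 UMIs in members could still have a UMI in up to 0.879% of such cells at puberty and 1.70% in the adult, by the exact interval.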
